A study of Mus musculus with 13 samples.

Results

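The Bcl2 family decides whether a cell keeps its mitochondrial outer membrane intact or opens it and dies, and 9 of its genes were followed here through mouse thymocyte development. The 9 genes were found by their symbols in the gene lists of both Parse experiments, out of 57010 genes listed, and all 9 passed the filter on low counts. They were Bcl2, Bcl2l1, Mcl1 and Bcl2a1b, which encode survival proteins, Bcl2l11, Bmf and Bbc3, which encode the BH3-only proteins BIM, BMF and PUMA, and Bax and Bak1, which encode the pore-forming effectors.

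The survival proteins hold BAX and BAK in check, and the BH3-only proteins are bound by the survival proteins and release that check when they become abundant. In the thymus, double-negative (DN) cells depend on interleukin 7, double-positive (DP) cells live for a few days unless their T cell receptor is engaged, and mature single-positive cells again respond to interleukin 7. Bcl2l1, which encodes BCL-XL, is known as the survival gene of DP thymocytes, Bcl2 as that of DN and mature T cells, and BIM as a mediator of the deletion of self-reactive thymocytes.

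RNA was counted in single fixed cells by split-pool combinatorial barcoding with a Parse WT and a Parse Mini kit. The thymic samples came from untreated 2-month-old female C57BL/6N mice, with 2 mice per kit, separate mice for each kit and the 2 lobes of each thymus kept apart, which gave WT 1 to 4 and Mini 1-A, 1-B, 2-A and 2-B. The labels do not say which samples share a mouse, so no fit by mouse was made. Lobes of a mouse are not independent animals, so p-values below treat these 8 samples as replicates and are smaller than a test over mice would give. The fits between classes take the sample as a block. Their error is the spread of class differences over the samples, pooled over all classes in the fit, and not the spread between samples. The WT library held another 16 samples. Its labels name thymus and spleen, and control and stressed mice, without tying a sample to either, while the study's own text counts these samples as non-thymic. Those 16 samples were put in no group, and their values are given as medians and ranges with no test.

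Of 61923 cells of the thymic samples 58642 passed quality control, with 28057164 to 124106974 UMIs per sample and a median of 2388 to 4263 UMIs per cell. Clusters were named from marker genes by a rule that was set after the data had been seen, and the 9 genes and the pathway lists named below were left out of the genes used for clustering. The classes held 23915 resting DP-like, 11661 cycling, 1659 DN-like, 2877 Tox-high, 2269 strongly signalled, 2405 CD4-lineage Tox-high, 3397 mature-like and 878 innate-like cells, and 5056 cells stayed unnamed. Of these, 3796 formed a cluster, larger than the mature-like class, whose best list was that of mature CD4 cells but whose Tox-high score was too near to name it. It held mature CD4 markers at a median of 1232 CPM (980 to 1513), against 1828 in mature-like and 1064 in resting DP-like cells, and resting DP markers at a median of 6180 CPM (4812 to 7067), against 2500 in mature-like cells, and a median of 6504 UMIs per cell before doublet removal. Levels are counts per 1000000 UMIs (CPM), from the UMIs of a gene over all UMIs outside ribosomal RNA genes, summed over the cells of a class in a sample. Summed levels of the marker lists stood highest in the class of their name for the DN list, with a median of 1310 CPM in DN-like against 96.7 in resting DP-like cells, and for the resting DP list, with 10553 against 6944 in cycling, 6507 in DN-like, 5649 in Tox-high and 2500 in mature-like cells. The Tox-high list was an exception: it reached 8709 CPM in the CD4-lineage class, 7845 in the strongly signalled class and 5992 in the Tox-high class. WT 1 stood apart from the other samples, since 2 further unnamed clusters came from it alone. They held 929 and 152 cells before doublet removal and scored highest for the resting DP and the cycling list. They stayed unnamed because 1 sample gave more than 50% of their cells. The resting DP-like and cycling values of WT 1 therefore leave these cells out. Depth differed between classes, with a median of 6040 to 9482 UMIs per cell in DN-like and 1481 to 2793 in resting DP-like cells. No barcode combination was shared by 2 samples, while 44889 of 128624 cell barcodes of the WT library and 2720 of 20085 of the Mini library recurred in another sublibrary of the same kit.

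The genes lie on 6 chromosomes of the GRCm38 build in the GENCODE M21 annotation. Bcl2 covers chr1:106538178-106714274 on the minus strand, of which 9.157 kb of 176.1 kb is exonic. Bcl2l1 covers chr2:152780668-152831728 and Bmf chr2:118528757-118549687, both on the minus strand, and Bcl2l11 covers chr2:128126038-128162547 on the plus strand. Mcl1 is at chr3:95658788-95663176, Bbc3 at chr7:16308393-16318205 and Bax at chr7:45461697-45466898. Bak1 is at chr17:27019810-27029009 and Bcl2a1b at chr9:89199209-89207827. Of the 50-base words in the transcripts of Bcl2a1b, 79.2% also occur in Bcl2a1a, Bcl2a1c, Bcl2a1d or Gm29094, so its counts are uncertain, and 8.51% of those of Bax occur in Gm45808. Bcl2 and Bak1 overlap genes on the opposite strand, and whether counting used strand is not stated.

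Promoters are shown for Bcl2 and Bcl2l1, the pair that most of the results concern, and for the BH3-only genes Bmf and Bcl2l11. They are the 250 bases before a RefSeq transcription start in GRCm38.p6, 5′ to 3′ on the strand of the gene. Bcl2 is chr1:106714291-106714540, Bcl2l1 chr2:152828490-152828739 (an inner start, 1 of 3), Bmf chr2:118549687-118549936 (1 of 3) and Bcl2l11 chr2:128125788-128126037 (1 of 2), and where a gene had several starts the window that held a match is shown. Capitals mark AGGTCA, a core motif of nuclear receptors, and GTAAACA, a forkhead motif, on either strand.
Bcl2: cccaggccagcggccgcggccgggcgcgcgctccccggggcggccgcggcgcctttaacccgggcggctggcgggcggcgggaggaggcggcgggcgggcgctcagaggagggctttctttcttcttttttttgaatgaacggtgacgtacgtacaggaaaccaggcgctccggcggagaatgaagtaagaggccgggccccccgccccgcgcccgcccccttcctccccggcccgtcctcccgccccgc
Bcl2l1: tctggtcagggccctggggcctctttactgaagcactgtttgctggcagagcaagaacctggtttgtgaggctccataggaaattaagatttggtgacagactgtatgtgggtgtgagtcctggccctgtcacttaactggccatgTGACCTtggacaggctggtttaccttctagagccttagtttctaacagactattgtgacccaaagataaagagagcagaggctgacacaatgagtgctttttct
Bmf: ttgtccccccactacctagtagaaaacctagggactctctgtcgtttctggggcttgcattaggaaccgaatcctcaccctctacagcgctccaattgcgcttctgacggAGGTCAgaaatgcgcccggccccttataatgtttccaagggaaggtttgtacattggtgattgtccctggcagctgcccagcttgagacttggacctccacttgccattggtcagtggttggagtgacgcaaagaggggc
Bcl2l11: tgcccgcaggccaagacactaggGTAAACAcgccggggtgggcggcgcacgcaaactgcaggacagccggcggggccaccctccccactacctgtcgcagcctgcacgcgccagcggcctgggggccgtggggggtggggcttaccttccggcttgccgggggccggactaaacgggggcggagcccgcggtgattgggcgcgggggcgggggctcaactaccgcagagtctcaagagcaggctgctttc
AGGTCA stood on the minus strand of the Bcl2l1 window, 104 bases before the start, and on the plus strand of the Bmf window, 140 bases before the start. It occurs in 14.0% of 32851 windows of this length, GTAAACA in 3.17% and the STAT motif TTCNNNGAA in 7.02%. Over all 16 windows of the 9 genes, 4 windows of 4 genes held a match, the remaining gene being Bbc3 with GTAAACA in chr7:16310011-16310260. The Bcl2 window, with 74.8% G and C, held none of the 3 motifs. A match describes these letters and is not a binding site.

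Bcl2 and Bcl2l1 stood in opposite order over the thymocyte classes. In resting DP-like cells, Bcl2 was at 81.5, 117, 90.9 and 115 CPM in WT 1 to 4 and at 111, 76.6, 99.6 and 82.2 in Mini 1-A, 1-B, 2-A and 2-B. In mature-like cells, those with the markers of CD4 and CD8 single-positive thymocytes, Bcl2 was at 1900, 1395, 1410 and 1311 in WT 1 to 4 and at 1666, 1727, 1697 and 1673 in the Mini samples. Every mature value of Bcl2 was more than 10 times the highest resting DP value, and WT 1 was the highest of the mature values. Bcl2l1 in resting DP-like cells was at 478, 392, 423 and 375 CPM in WT 1 to 4 and at 451, 497, 488 and 513 in the Mini samples. In mature-like cells Bcl2l1 was at 111, 138, 132 and 121 in the WT and at 163, 127, 148 and 157 in the Mini samples. The groups of Bcl2l1 values did not overlap either.

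**Figure D1:**
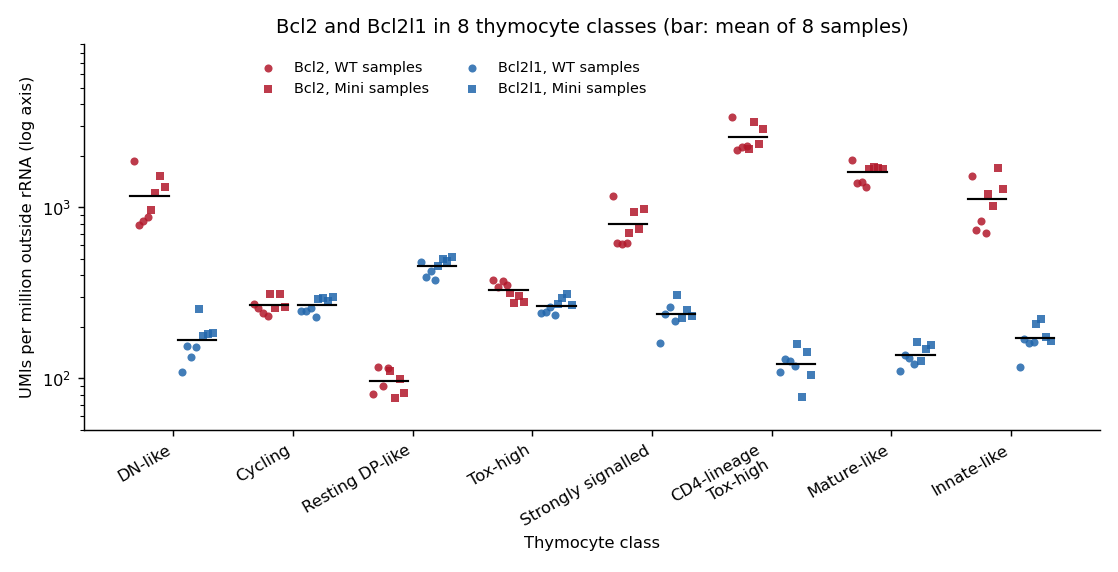
CPM outside ribosomal RNA of Bcl2 (red) and Bcl2l1 (blue) on a log axis, by thymocyte class; each point is 1 thymic sample (circles WT, squares Mini) and bars are means of 8 samples. Bcl2 was lowest in resting DP-like cells, with a mean of 96.7, where Bcl2l1 was highest, with a mean of 452.

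The mean of Bcl2 fell in the order CD4-lineage Tox-high (2571 ± 479 CPM, SD, n = 8), mature-like (1597 ± 202), DN-like (1171 ± 380), innate-like (1124 ± 369), strongly signalled (798 ± 207), Tox-high (327 ± 39.1), cycling (267 ± 29.3) and resting DP-like (96.7 ± 16.1). Mature-like and DN-like, DN-like and innate-like, innate-like and strongly signalled, and Tox-high and cycling values of Bcl2 overlapped between neighbors, and the other neighbors did not. The mean of Bcl2l1 fell in the order resting DP-like (452 ± 50.7), cycling (269 ± 27.2), Tox-high (266 ± 26.9), strongly signalled (236 ± 41.7), innate-like (173 ± 32.4), DN-like (168 ± 43.0), mature-like (137 ± 18.1) and CD4-lineage Tox-high (121 ± 24.8). Only resting DP-like cells were clear of the next class in Bcl2l1, and each later class overlapped its neighbor. Within the mature cells, Bcl2 averaged 1495 ± 218 in the CD4 and 1750 ± 267 in the CD8 single-positive cluster, and Bcl2l1 134 ± 7.90 and 140 ± 41.4, all with overlap. Over the means of the 8 classes the Pearson correlation of log2 Bcl2 with log2 Bcl2l1 was -0.98, a description of 8 points that share samples and libraries.

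Genes were set side by side per kilobase of exon and per kilobase of the whole gene, introns included. The study classed more transcripts of its Parse data as unspliced than as spliced. Ranks per kilobase of exon therefore need not be ranks of spliced RNA. Per kilobase of exon, Bcl2l1 had the highest median of the 9 genes in resting DP-like cells, at 101 CPM per kilobase, followed by Bcl2l11 at 54.4, Mcl1 at 34.4, Bmf at 18.9 and Bcl2 at 10.4. In mature-like cells Bcl2 led at 182, followed by Mcl1 at 42.4, Bcl2l11 at 33.8 and Bcl2l1 at 29.4, and Bmf was last at 5.40. Bcl2 was below Bcl2l1 on this scale in cycling cells (28.4 and 58.9) and in Tox-high cells (36.015 and 57.7) and above it in strongly signalled (79.3 and 51.0), DN-like (119 and 36.3) and CD4-lineage Tox-high cells (252 and 26.6). Per kilobase of the whole gene the order of the 9 genes was another: Mcl1 led in resting DP-like cells at 26.8, followed by Bcl2l11 at 11.96 and Bcl2l1 at 9.10, and it led in mature-like cells at 33.0, followed by Bcl2 at 9.48. On that scale Bcl2 was at 4.12 and Bcl2l1 at 4.58 in strongly signalled cells, so the order of the pair in that class depended on the length used, while it was the same on both scales in the other 6 classes just named.

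The ratio of Bcl2 to Bcl2l1 UMIs needs no library size, and its change between classes needs no gene length. It had a median of 6.54 (3.82 to 16.9) in DN-like, 1.03 (0.865 to 1.10) in cycling, 0.210 (0.154 to 0.306) in resting DP-like, 1.28 (0.933 to 1.55) in Tox-high, 2.90 (2.30 to 7.16) in strongly signalled, 18.4 (13.6 to 40.2) in CD4-lineage Tox-high, 10.8 (10.1 to 17.0) in mature-like and 5.42 (4.33 to 12.9) in innate-like cells. Between resting DP-like and mature-like cells of a sample the log2 ratio rose by 5.77 ± 0.58 (SD, n = 8), or 54.6-fold, with a range of 5.08 to 6.64 and the same direction in 8 of 8 samples. An exact two-sided sign-flip permutation test gave p = 0.0078125, the smallest that 8 samples allow. The size of the rise depended on how cells were filtered and clustered. It was 4.56 (23.5-fold) with the unnamed cluster of mature CD4 markers joined to the mature-like cells, an alternative chosen after seeing the data. It was 4.80 (27.9-fold) at a higher cluster resolution and 5.48 (44.5-fold) without doublet removal. With cells under 1000 UMIs dropped and the rest thinned to 1000 UMIs it was 6.29 (78.2-fold). That setting kept 20884 of 23915 resting DP-like and 3218 of 3397 mature-like cells. With the 30% of cells of highest doublet score removed it was 6.93 (122-fold). The ratio rose in 8 of 8 samples each time. The unnamed cluster itself had Bcl2 at a median of 900 CPM (757 to 1040), Bcl2l1 at 307 (237 to 346) and a ratio of 3.04 (2.35 to 3.46), and its Rag1 and Rag2 were at 57.9% (48.2 to 62.3) of the resting DP-like level; the part of resting DP RNA in these levels was not tested. Within a kit, the rise was 5.62 ± 0.72 in the 4 WT and 5.92 ± 0.45 in the 4 Mini samples, where the same exact permutation test cannot go below p = 0.125 and gave that value.

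**Figure D2:**
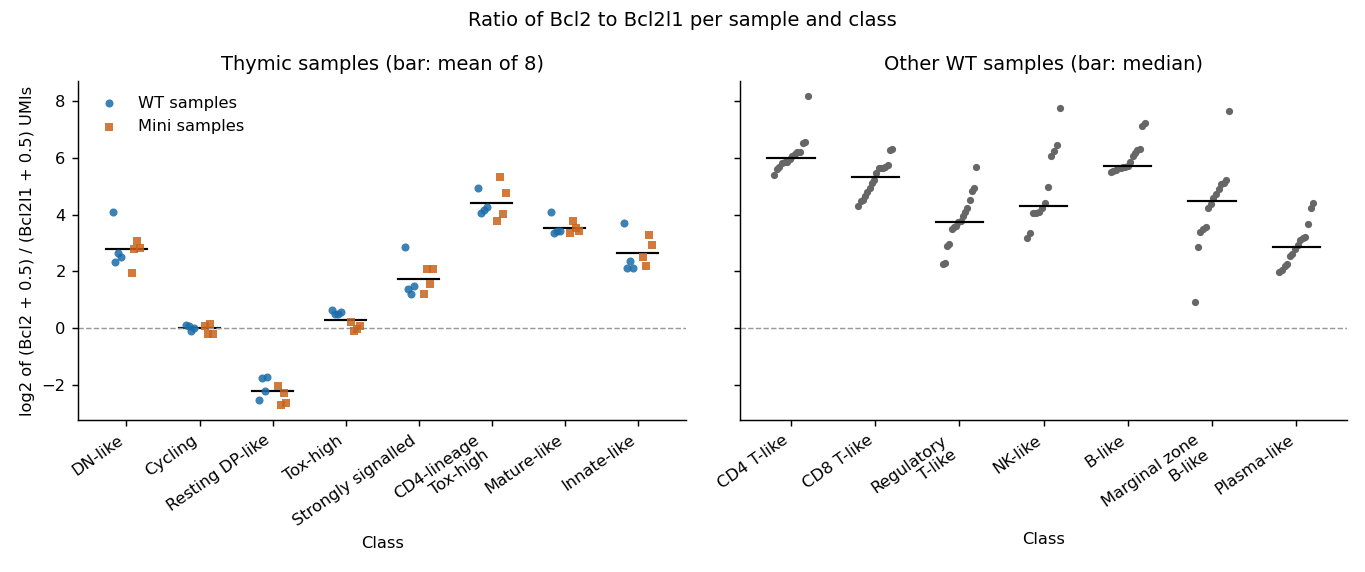
Log2 of the ratio of Bcl2 to Bcl2l1 UMIs (0.5 added to each) per sample, for the thymocyte classes (left, bar: mean of 8 samples) and for classes of the other WT samples (right, bar: median). Resting DP-like cells lie below 0 in every thymic sample, at ratios of 0.154 to 0.306, and CD4 T-like cells of the other samples lie at ratios of 42.5 or more. In 3 of 14 CD4 T-like samples Bcl2l1 had no UMI, so that their ratios, the highest (287) included, are set by the 0.5 added.

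Differences between classes were tested for all 9708 genes that passed the filter, with edgeR on sums per sample and class. The filter drew on all 8 classes, innate-like cells included, which enter none of the comparisons. Bcl2a1b had a mean of 48.8 CPM in innate-like cells and of 7.45 or less in the classes compared. In single samples it reached 29.5 to 92.8 CPM in innate-like cells and at most 11.8 in the classes compared. Whether it would pass the filter without innate-like cells was not tested. Its calls depend on that filter and are included in the counts of members called below. Differences are log2 fold changes ± SE with Benjamini-Hochberg adjusted p, and "called" means an adjusted p under 0.05. The comparisons share sums (the resting DP-like sums enter 4 of them), so they are not independent of each other. Lobes, kits and cells of the same clustering underlie all of them.

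From DN-like to resting DP-like cells, Bcl2 fell by 3.36 ± 0.11 on the log2 scale (adjusted p = 9.3e-40) and Bcl2l1 rose by 1.55 ± 0.07 (5.3e-33). DN-like Bcl2 ranged from 784 to 1857 CPM with a median of 1093, and DN-like Bcl2l1 from 109 to 253 with a median of 167, neither overlapping the resting DP-like values. Of the BH3-only genes, Bbc3, a gene induced by p53 and by glucocorticoids, rose by 1.31 ± 0.18 (1.6e-09) and Bmf by 0.90 ± 0.09 (3.1e-15). Bcl2l11 was called higher by 0.18 ± 0.06 (0.0094), but its CPM in resting DP-like cells exceeded that in DN-like cells in 4 of 8 samples, and the DN-like level was at a median of 99.7% of the resting DP-like one. Mcl1, a short-lived survival protein that thymocytes need at most stages, rose by 0.23 ± 0.06 (0.00086), and Bax (-0.15 ± 0.16, adjusted p = 0.40), Bak1 (0.21 ± 0.12, 0.12) and Bcl2a1b (-0.74 ± 0.53, 0.21) did not pass, though Bak1 did in the WT samples alone (0.31, 0.046) and at a higher cluster resolution (0.26, 0.048). So 5 of 9 were called higher and 1 lower, against 35.1% higher and 33.4% lower over all genes. The call of Bcl2l11 was lost with DESeq2 (0.11, adjusted p = 0.17), without TMM scaling (0.0477, 0.52), in the Mini samples alone (0.0306, 0.77), without the sample as a block (0.21, 0.18), with 30% of cells removed as doublets (0.12, 0.21), under both changes of depth and without WT 1 (0.11, 0.11) or WT 3 (0.12, 0.12). That of Mcl1 was lost without TMM scaling (0.10, 0.17) and at 1000 UMIs per cell (0.0561, 0.76).

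Cycling cells, which were named from cell cycle markers alone and given no stage, stood between these classes in Bcl2 and Bcl2l1. Against resting DP-like cells Bcl2 was higher by 1.38 ± 0.11 (adjusted p = 1.4e-19) and Bcl2l1 lower by 0.80 ± 0.05 (log2 fold change -0.80, 5.9e-22). Bmf was lower (-1.395 ± 0.070, 2.1e-29), as were Bbc3 (-0.92 ± 0.11, 4.4e-11), Mcl1 (-0.45 ± 0.05, 2.8e-12), Bak1 (-0.29 ± 0.08, 0.0014) and Bcl2l11 (-0.18 ± 0.06, 0.0049). Bmf ranged from 32.3 to 54.2 CPM in cycling and from 87.2 to 131 in resting DP-like cells, without overlap. Bax was at -0.05 ± 0.11 (adjusted p = 0.69). Bcl2a1b was called higher (0.85 ± 0.32, 0.017) on 71 UMIs in all cycling cells and 32 in all resting DP-like cells, and not in the WT (0.64, 0.14) or the Mini samples alone (1.497, 0.053) or with 30% of cells removed as doublets (0.77, 0.12). The call of Bcl2l11 was lost with DESeq2 (-0.13, adjusted p = 0.074), in the Mini samples alone (-0.13, 0.10) and without the block (-0.19, 0.22), and that of Bak1 without the block (-0.30, 0.061). The share of calls was 2 of 9 higher and 6 of 9 lower, beside 35.4% and 36.9% of all genes.

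Tox-high cells, which carry the marks of T cell receptor engagement, had Bcl2 at 275 to 375 CPM with a median of 330, above every resting DP-like value. The log2 fold change of Bcl2 was 1.73 ± 0.13 (adjusted p = 2.3e-19), that of Bcl2l1 -0.80 ± 0.07 (3.5e-16) and that of Bmf -0.77 ± 0.10 (1.4e-09). Mcl1 (-0.27 ± 0.07, 0.0033) and Bcl2l11 (-0.23 ± 0.07, 0.0087) were lower by less. The call of Mcl1 was lost in the WT (-0.24, adjusted p = 0.064) and in the Mini samples alone (-0.29, 0.11), and that of Bcl2l11 without WT 3 (-0.19, 0.076), in the Mini samples alone (-0.19, 0.21), in cells of at least 2000 UMIs (-0.17, 0.10) and without the block (-0.25, 0.28). Bbc3 (0.15 ± 0.17), Bax (0.32 ± 0.18), Bak1 (-0.30 ± 0.15) and Bcl2a1b (1.16 ± 0.62) did not pass, though Bak1 did with 30% of cells removed as doublets (-0.64, 0.020) and Bcl2a1b at a higher cluster resolution (1.62, 0.0059). With the CD4-lineage cells joined to the Tox-high cells, an alternative chosen after seeing the data, Bcl2a1b (1.985, 6.0e-05) and Bax (0.41, 0.015) were called higher. With 1 of 9 higher and 4 of 9 lower, the members were called beside 10.3% and 11.6% of all genes.

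Mature-like cells against Tox-high cells had Bcl2 higher by 2.17 ± 0.12 (adjusted p = 5.1e-27) and Bcl2l1 lower (0.498-fold, log2 fold change -1.005 ± 0.083, 1.1e-17). Bmf (-1.17 ± 0.13, 1.0e-11) and Bcl2l11 (-0.63 ± 0.08, 6.3e-11) were lower as well, and Mcl1 was higher (0.54 ± 0.08, 1.3e-08). Bcl2a1b, a survival gene of activated lymphocytes and myeloid cells, was called higher (2.45 ± 0.45, 4.9e-06) on 86 against 9 UMIs. Bbc3 (-0.17 ± 0.20), Bax (0.10 ± 0.21) and Bak1 (0.10 ± 0.17) did not pass. That was 3 of 9 higher and 3 of 9 lower, with 20.6% and 23.2% of all genes. When the CD4-lineage Tox-high cells were joined to the Tox-high cells, Bcl2 differed by 0.19 (adjusted p = 0.18) and was no longer called. With the unnamed cluster of mature CD4 markers joined to the mature-like cells the folds were smaller, though still called. Bcl2 was then at 1.73 (adjusted p = 2.4e-20), Bcl2l1 at -0.22 (0.017), Bmf at -0.32 (0.018) and Bcl2l11 at -0.24 (0.006).

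Over the whole step from resting DP-like to mature-like cells, Bcl2 was 14.9-fold higher (log2 fold change 3.90 ± 0.11, adjusted p = 3.2e-44) and Bcl2l1 was lower (-1.80 ± 0.07, 1.8e-36). The medians of Bmf were 99.2 CPM (87.2 to 131) in resting DP-like and 28.4 (23.4 to 38.8) in mature-like cells, with no overlap (-1.94 ± 0.10, 2.4e-28). Bcl2l11 had medians of 437 (348 to 752) and 272 (206 to 320), again with no overlap (-0.86 ± 0.07, 2.7e-19). Mcl1 rose by 0.27 ± 0.06 (5.2e-05), from a median of 117 (103 to 134) to 145 (136 to 179), and Bax by 0.42 ± 0.15 (0.014). The Bax call rested on 166 UMIs in mature-like cells and was lost in the WT samples alone (0.32, adjusted p = 0.12) and without a filter on low counts (0.38, 0.066). Bbc3 (-0.03 ± 0.15) and Bak1 (-0.20 ± 0.12, but -0.31 with an adjusted p of 0.0051 at a higher cluster resolution and -0.29 with 0.046 without Mini 1-B) did not pass, and Bcl2a1b did (3.61 ± 0.31, 5.3e-17). The calls, 4 of 9 higher and 3 of 9 lower, stood beside 29.4% and 33.2% of all genes. With the unnamed cluster of mature CD4 markers joined to the mature-like cells the folds were smaller: Bcl2 was at 3.48 (adjusted p = 2.32e-39), Bcl2l1 at -0.99 (1.21e-24), Bmf at -1.07 (2.96e-21) and Bcl2l11 at -0.445 (1.08e-09), the calls of Mcl1 (0.11, 0.071) and Bax (0.25, 0.072) were lost, and Bak1 was called lower (-0.21, 0.042).

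**Figure D3:**
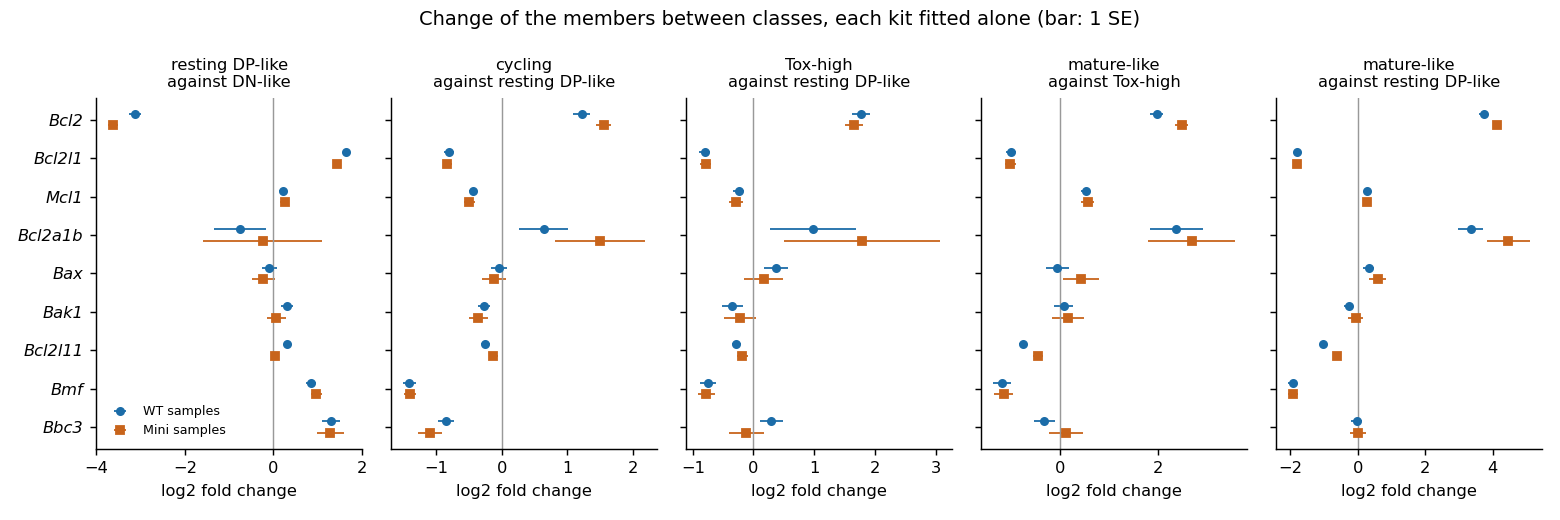
Log2 fold change of each member in 5 comparisons of thymocyte classes, fitted separately in the 4 WT (circles) and the 4 Mini samples (squares); bars are SE. Bcl2 and Bcl2l1 lay on opposite sides of 0 in each comparison and in both kits, with Bcl2 at 3.73 and 4.13 for mature-like against resting DP-like cells.

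Over the 7 comparisons, some of which share classes, 39 of 63 effects of the 9 genes were called in either direction, beside 45.4% of all gene tests. Fitted in each kit alone, Bcl2 from resting DP-like to mature-like cells was at 3.73 ± 0.14 in the WT and 4.13 ± 0.11 in the Mini samples, and Bcl2l1 at -1.80 ± 0.09 in both. Of 63 differences between the kits (9 genes, 7 comparisons) none passed the edgeR interaction test, the lowest adjusted p being 0.30, beside 0.168% of all gene tests, so that 0 calls is near the background. An unadjusted p under 0.05 was found for 8, beside 6.65% of all gene tests. The largest of the 8 (Mini minus WT) was that of Bax from Tox-high to strongly signalled cells, 1.16 (0.0085), and the lowest p that of Bcl2l11 from resting DP-like to mature-like cells, 0.37 (0.0028). For Bcl2 they were -0.47 (0.017) from DN-like to resting DP-like cells, 0.49 (0.027) from Tox-high to mature-like cells and 0.57 (0.014) from Tox-high to strongly signalled cells, and for Bcl2l11 they were -0.25 (0.025), 0.29 (0.038) and 0.39 (0.0038) in the same 3 comparisons. The level of Bcl2l11 in resting DP-like cells averaged 570 CPM in the WT and 372 in the Mini samples. In this design kit and mouse cannot be told apart.

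Strongly signalled cells, marked by Tnfrsf9, Ikzf2 and Nr4a3 among their leading genes, were compared with Tox-high cells after seeing the data. They held the highest mean level of Bcl2l11 of the 8 classes, 613 ± 104 CPM, with a median of 614 (442 to 817) against 388 (304 to 580) in Tox-high cells. Bcl2l11 was called higher (0.56 ± 0.07, adjusted p = 5.8e-09), as were Bcl2 (1.16 ± 0.12, 2.6e-12) and Bcl2a1b (1.76 ± 0.53, 0.011), the last on 36 against 9 UMIs and not without WT 1 (1.49, 0.055) or in the WT (1.43, 0.20) or the Mini samples alone (2.46, 0.090). Bcl2l1 (-0.20 ± 0.08, 0.074), Bmf (-0.20 ± 0.13, 0.31) and Bbc3 (-0.09 ± 0.21, 0.85) did not pass, nor did Mcl1 (0.02 ± 0.09), Bax (0.15 ± 0.22) and Bak1 (0.18 ± 0.18). So 3 of 9 were called higher and 0 lower by edgeR, beside 9.14% and 8.78% of all genes, with Bcl2l1 the lone member lower at an unadjusted p under 0.05 (0.015). DESeq2 gave the same counts of members, and its share of all genes was not computed. With 30% of cells removed as doublets Bcl2l1 (-0.62, adjusted p = 9.0e-05) and Bmf (-0.85, 0.00037) were called lower, and Bmf was so at a higher cluster resolution as well (-1.06, 0.0022). With the CD4-lineage cells joined to the Tox-high cells both were called the other way, Bcl2l1 at 0.27 (0.0094) and Bmf at 0.38 (0.018). The call of Bcl2a1b was lost in that alternative (0.97, adjusted p = 0.10). The rise of Bcl2 was not stable to the class borders either: at a higher cluster resolution it was 0.28 (adjusted p = 0.23), and with the same cells joined it reversed to -0.82 (6.8e-08).

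CD4-lineage Tox-high cells had both the highest Bcl2 and the lowest Bcl2l1 mean of the 8 classes. Mature-like cells against them, compared after seeing the data, had lower Bcl2 (-0.69 ± 0.10, adjusted p = 2.6e-08), at 1311 to 1900 against 2154 to 3348 CPM. Mcl1 was higher in mature-like cells (0.48 ± 0.08, 4.5e-07), Bcl2a1b was called higher (1.04 ± 0.37, 0.024) and Bbc3 lower (-0.49 ± 0.19, 0.046). Bcl2l1 (0.18 ± 0.10), Bmf (0.44 ± 0.18), Bcl2l11 (-0.19 ± 0.08), Bax (-0.10 ± 0.21) and Bak1 (-0.16 ± 0.17) did not pass with edgeR. The call of Bbc3 was lost in most alternatives, among them DESeq2 (-0.45, adjusted p = 0.067), no filter on low counts (-0.46, 0.0995), no doublet removal (-0.44, 0.074), no block (-0.47, 0.14) and leaving out WT 1 (-0.37, 0.20). That of Bcl2a1b was lost in the WT (0.86, 0.17) and the Mini samples alone (1.602, 0.15), at a higher cluster resolution (0.77, 0.13), without the block (1.03, 0.053) and without Mini 2-B, WT 2 or WT 3. Bmf was called higher by DESeq2 (0.48, 0.0197), without doublet removal (0.48, 0.022) and most clearly at a higher cluster resolution (1.26, 2.2e-09), where Bcl2l1 was called higher too (0.88, 4.8e-12). Further edgeR fits that called Bmf higher were those with ribosomal RNA genes counted (0.47, 0.037) and at a lower cluster resolution (0.52, 0.024). So were those without Mini 2-A (0.56, 0.023), WT 1 (0.52, 0.030) or WT 4 (0.70, 0.0037). Bcl2l11 was called lower at 1000 UMIs per cell (-0.39, 0.0012), with 30% of cells removed as doublets (-0.26, 0.032), at a lower cluster resolution (-0.21, 0.032), in the WT samples alone (-0.23, 0.036) and without Mini 2-B (-0.21, 0.045). With the unnamed cluster of mature CD4 markers joined to the mature-like cells it was called the other way (0.20, 0.033), Bcl2l1 (0.95, 9.4e-15) and Bmf (1.28, 7.1e-11) were called higher, and the calls of Bcl2a1b (0.38, 0.50) and Bbc3 (-0.37, 0.089) were lost. The counts were 2 of 9 higher and 2 of 9 lower beside 16.2% and 14.9% of all genes. Without WT 2 or without WT 3, 2 of 9 in all were called, and the share of all genes was not computed there.

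**Figure D4:**
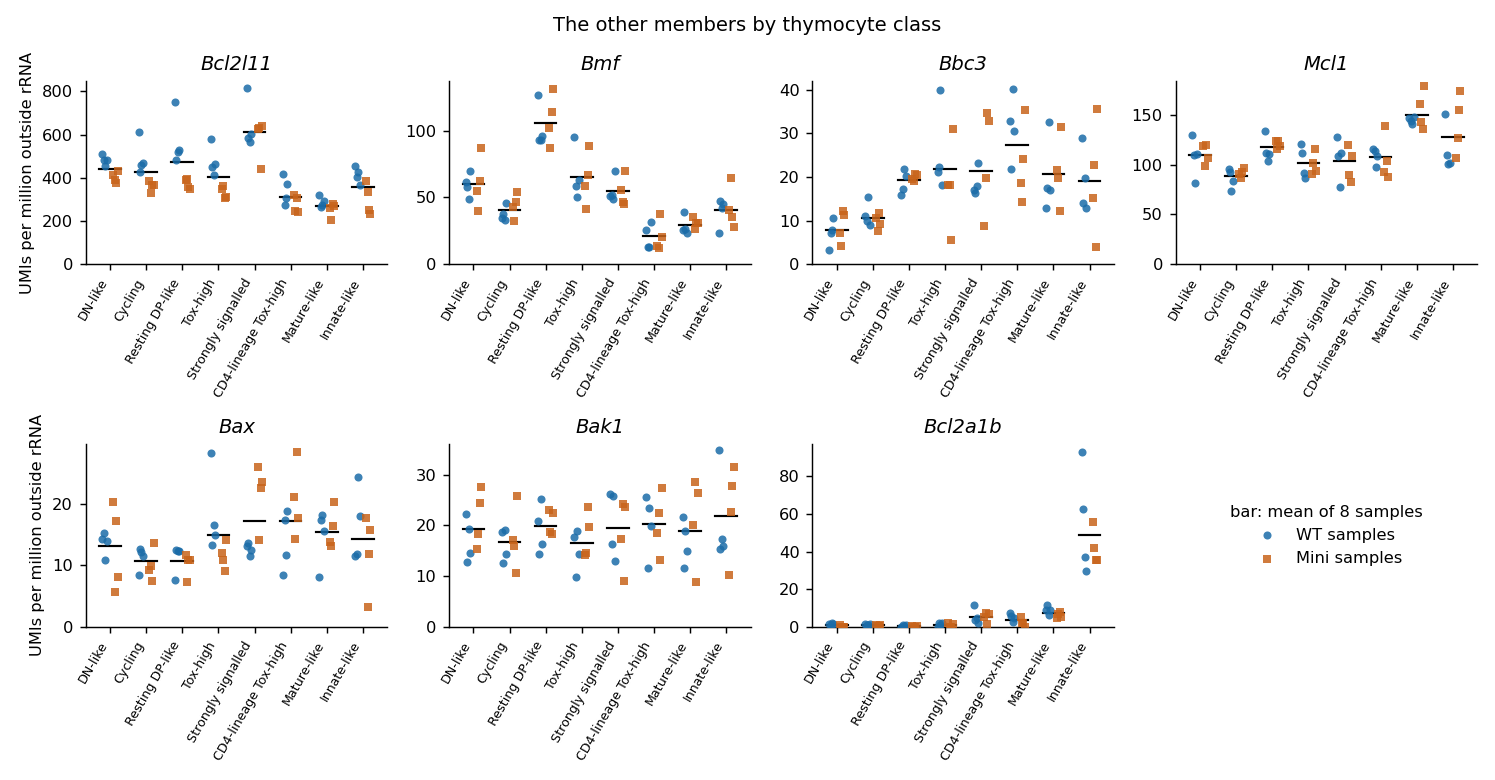
CPM outside ribosomal RNA for the 7 members other than Bcl2 and Bcl2l1, by thymocyte class; each point is 1 thymic sample and bars are means of 8 samples, with axes that start at 0. Bmf peaked in resting DP-like cells (mean 105), Bcl2l11 in strongly signalled cells (mean 613) and Bcl2a1b in innate-like cells (mean 48.8).

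Among the BH3-only genes the classes ranked differently for each gene. Bmf, known for its part in death after loss of anchorage, was highest in resting DP-like cells (105 ± 16.6 CPM) and lowest in CD4-lineage Tox-high cells (20.8 ± 9.73). Bcl2l11 changed over a range of 270 ± 32.5 in mature-like to 613 ± 104 in strongly signalled cells, and each class overlapped its neighbor in rank. Bbc3 was low throughout, from 7.94 ± 3.25 in DN-like to 27.2 ± 8.95 in CD4-lineage Tox-high cells, and rested on 98 to 1108 UMIs per class for the 7 thymocyte classes compared.

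The class means of Mcl1 ran from 88.9 ± 7.55 CPM in cycling to 150 ± 13.8 in mature-like cells. Bcl2a1b stood at 48.8 ± 20.9 in innate-like cells, which hold Zbtb16 and Il2rb, against 0.395 ± 0.404 in resting DP-like and 7.45 ± 2.31 in mature-like cells. Its floor of 3 UMIs was not reached in many single samples, and 3 of 8 samples had no UMI in DN-like, resting DP-like and Tox-high cells each. Thymic B-like cells had Bcl2a1b at 52.2 ± 28.4. In the innate-like cells the summed B markers had a median of 129 CPM (63.2 to 189), with 9 of 9 markers above 0, against 135 in resting DP-like and 4849 in B-like cells. Their dendritic markers had a median of 15.0 (0 to 34.8), with 7 of 8 above 0 and Clec9a at 0, and their NK markers 68.4 (51.9 to 110), with 5 of 5 above 0. The part of such cells in the Bcl2a1b level was not tested.

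The effectors had a narrow range of levels. Bax means lay between 10.6 ± 2.19 (cycling) and 17.3 ± 6.13 (CD4-lineage Tox-high) CPM and Bak1 means between 16.6 ± 4.24 (Tox-high) and 21.9 ± 8.73 (innate-like). With the settings used throughout, 1 of 7 comparisons was called for each gene, mature-like against resting DP-like cells for Bax and cycling against resting DP-like cells for Bak1, and the alternatives that changed this are given with each comparison.

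Rag1 and Rag2, the recombinase genes of cells that rearrange antigen receptors, were also detected outside the resting DP-like class. The summed level of Rag1 and Rag2 in mature-like cells was 22.1% (15.7 to 26.2) of that in resting DP-like cells of the same sample, while Bcl2l1 was at 30.9% (23.2 to 36.3), Bmf at 27.6% (20.3 to 41.7) and Bcl2l11 at 55.0% (42.6 to 78.2). In DN-like cells the medians were 33.5% for Rag1 and Rag2, 36.6% for Bcl2l1 and 54.1% for Bmf, so that the first pair of shares was close. They were 42.1%, 60.3% and 40.7% in cycling, 39.0%, 61.2% and 61.0% in Tox-high and 37.4%, 54.6% and 53.4% in strongly signalled cells. In CD4-lineage Tox-high cells these medians were 10.1% for Rag1 and Rag2, 29.5% for Bcl2l1 and 14.8% for Bmf. In thymic B-like cells they were 36.1%, 41.1% and 43.2%. Dendritic-like cells held 23.0% for Rag1 and Rag2 and 41.8% for Bcl2l1. Their own transcription there and the part of carried-over or doublet RNA in the Bcl2l1 and Bmf levels outside resting DP-like cells were not tested.

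Other genes of the pathway were taken as 3 lists. Of 16 other Bcl2 family genes 5 passed the filter, of 19 apoptosome and caspase genes 16, and of 20 known upstream regulators 20. Bcl2a1d, a gene of the first list, is among those that share sequence with Bcl2a1b, so its counts are uncertain as well. Its calls below may not be separate from those of Bcl2a1b. From DN-like to resting DP-like cells 1 family gene was called higher and 2 lower, 3 and 7 apoptosome and caspase genes, and 8 and 12 regulators, beside 35.1% and 33.4% of all genes, with list medians of -0.05, -0.21 and -0.32 beside 0.02 over all genes. Bcl2a1d (-1.22), Bid (-0.26) and Bnip3l (0.62) were the called family genes, Birc5 (-1.55), which encodes survivin and is known from dividing cells, and Parp1 (-0.75) were among the leading genes of the second list, and Nr4a3 (-2.04), E2f1 (-1.82) and Bach2 (-1.70) led the third.

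In cycling against resting DP-like cells the counts were 3 higher and 1 lower in the family, 11 and 5 among apoptosome and caspase genes, and 8 and 8 among regulators, beside 35.4% and 36.9% of all genes, with medians of 0.32, 0.25 and -0.01 beside -0.01 over all genes. Birc5 (3.20) led the second list, E2f1 (2.74), Klf2 (1.398) and Bach2 (1.199) the third, and Bcl2a1d (0.93), Bid (0.80) and Bnip3l (-0.61) the first.

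Tox-high against resting DP-like cells gave 0 of 5 family genes called by edgeR (0 higher and 2 lower at an unadjusted p under 0.05), 5 higher and 1 lower of 16 apoptosome and caspase genes, and 8 higher and 3 lower of 20 regulators, beside 10.3% and 11.6% of all genes, with medians of 0.05, 0.05 and 0.25 beside -0.01. Casp8 (0.50) and Parp1 (0.37) were among the leading genes of the second list, and Egr1 (1.84), an early gene of receptor signalling, Bach2 (1.72) and E2f1 (1.03) led the third. Mature-like against Tox-high cells gave 0 higher by edgeR, also at an unadjusted p under 0.05, and 1 lower (Bid, -0.59), 3 and 4 (led by Birc3 at 1.26, Casp6 at -0.98 and Casp8 at 0.89) and 9 and 8 (led by Klf2, which drives exit from the thymus, at 4.04, Bach2 at 2.44 and Foxo1 at 1.87), beside 20.6% and 23.2% of all genes, with medians of -0.22, -0.04 and -0.07 beside -0.04.

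For mature-like against resting DP-like cells 1 family gene was higher (Bcl2a1d, 2.47) and 3 lower, led by Bid (-0.92) and Bnip3l (-0.41), beside 29.4% and 33.2% of all genes, with a median of -0.34 beside -0.04 over all genes. Apoptosome and caspase genes split 5 and 5 around a median of 0.03, with Casp8 (1.39), Birc3 (1.28) and Casp6 (-1.06) in front. Regulators split 13 and 7 around a median of 0.61, with Klf2 (4.60) and Bach2 (4.16) in front. In strongly signalled against Tox-high cells 1 family gene was higher (Bcl2a1d, 2.48) and 0 lower by edgeR, also at an unadjusted p under 0.05, 1 and 2 of the second list (Birc3 at 0.71, Casp2 at -0.46 and Cflar at -0.29) and 8 and 2 regulators (Nr4a3 at 2.48, Bach2 at 1.72 and Rel at 1.58), beside 9.14% and 8.78% of all genes, with medians of -0.03, -0.12 and 0.19 beside -0.02. Mature-like against CD4-lineage cells gave 1 higher (Bid, 0.74) and 0 lower by edgeR (1 lower at an unadjusted p under 0.05), 4 and 2 (among them Casp6 at -0.69 and Birc3 at 0.61) and 4 and 7 (Klf2 at 3.91, Foxo1 at 1.46 and Nr4a1 at -1.10), beside 16.2% and 14.9% of all genes, with medians of -0.24, 0.09 and -0.04 beside -0.01.

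The genes whose mean log2 level over the 8 classes was most like that of Bcl2, among 7646 genes, were Chst15 (Pearson r 0.97), Fam222b (0.97) and Chd3 (0.96). Those most like Bcl2l1 were Ssbp2 (0.99), Rmnd5a (0.99) and Whrn (0.99). These are descriptions over 8 classes that share samples and libraries.

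In the 16 other samples of the WT library, 81396 of 86786 cells passed quality control, with 5405078 to 91172408 UMIs per sample. After doublet removal 31565 of 77334 cells stayed unnamed, among them 5 clusters that scored highest for B and 4 for CD8 T markers, so the B-like and T-like values below cover only part of those lineages. Classes are given for samples that held at least 20 of their cells. Bcl2 was high and Bcl2l1 low in T cells: CD4 T-like cells had a median Bcl2 of 1690 CPM (947 to 2492, 14 samples) and Bcl2l1 of 22.01 (0 to 42.9), and CD8 T-like cells 1351 (923 to 2614, 16 samples) and 26.0 (0 to 123). The ratio of Bcl2 to Bcl2l1 had a median of 64.3 in CD4 T-like and 40.5 in CD8 T-like cells, beside 10.8 in mature-like thymocytes, with 218 and 261 UMIs of Bcl2l1 in all and none in 3 of 14 and 1 of 16 samples. Regulatory T-like cells, which carry Foxp3 and Ctla4 among their markers, had Bcl2 at 956 (434 to 1482), Bcl2l1 at 68.2 (14.7 to 127) and a ratio of 13.5, and their Bcl2a1b stood at 27.9 (12.2 to 47.2). NK-like cells had Bcl2 at 986 (594 to 1535, 12 samples) and Bcl2l1 at 42.0 (0 to 87.7). They held B markers at 2901 CPM (222 to 6326), with 9 of 9 above 0, against 397 to 650 in the medians of the 3 T classes, and dendritic markers at 725 (491 to 1221), with 7 of 8 above 0 and Xcr1 at 0; the part of such RNA in these levels was not tested.

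Among the BH3-only genes, Bmf was nearly absent from these T cells, with 8 UMIs in all CD4 T-like and 7 in all CD8 T-like cells and no UMI in 11 of 14 and 12 of 16 samples. Bcl2l11 had a median of 75.2 CPM (0 to 433) in CD4 T-like and 83.4 (57.0 to 271) in CD8 T-like cells. Bbc3 was at 15.7 (0 to 78.8) and 23.3 (0 to 37.6). Side by side with mature-like thymocytes, whose medians were 28.4 for Bmf, 272 for Bcl2l11 and 18.6 for Bbc3, the first pair was lower in medians and Bbc3 was of like size; the tissue and treatment of each of these samples are not given, their depth differs, and no test was run. Resting DP markers were at 2500 CPM in mature-like thymocytes against 483 in CD4 T-like and 895 in CD8 T-like cells, with 6 of 6 above 0 in each, and their part in these differences was not tested.

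**Figure D5:**
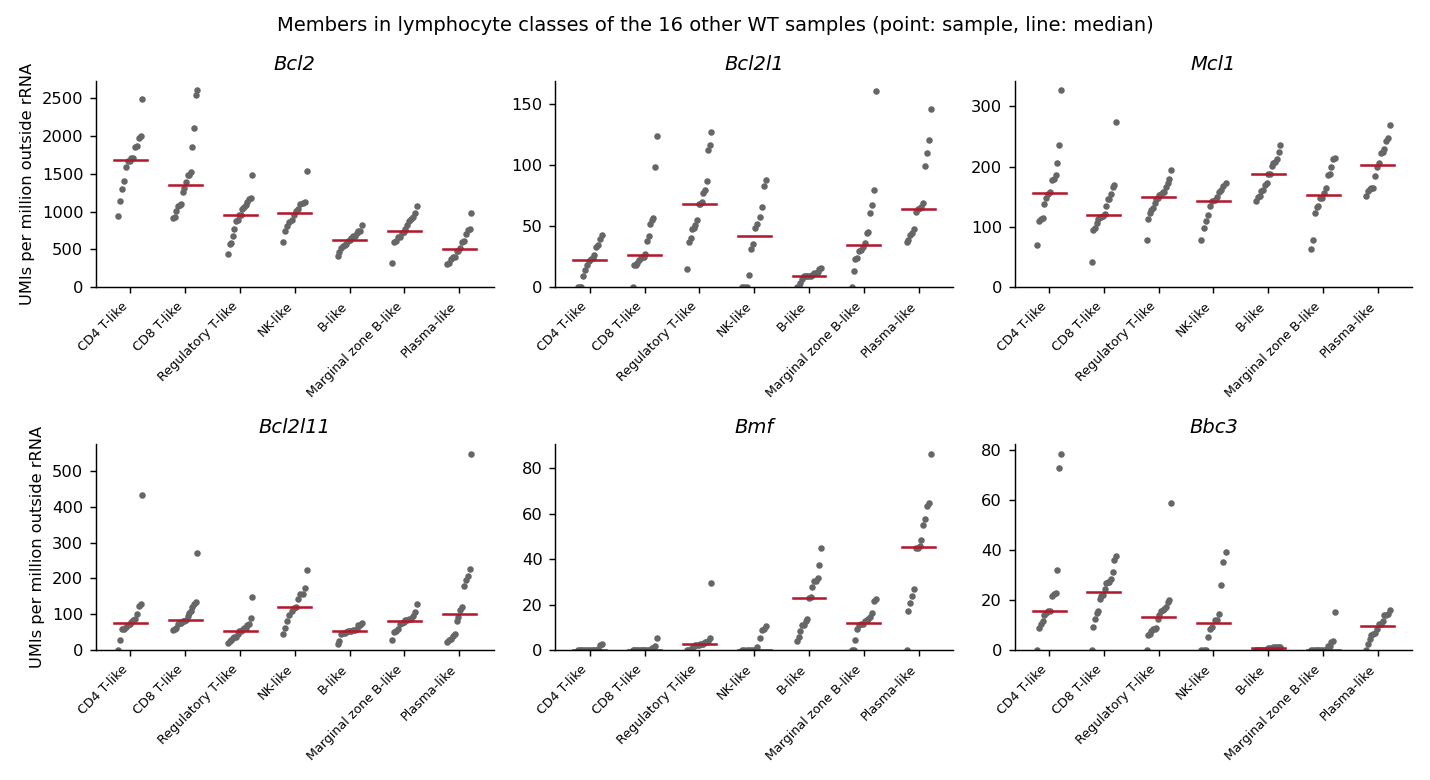
Levels of the members (CPM outside ribosomal RNA) in lymphocyte classes of the 16 other WT samples; each point is 1 sample with at least 20 cells of the class and bars are medians. Bcl2 had a median of 1690 in CD4 T-like and 500 in plasma-like cells.

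B-like cells of these samples had Bcl2 at 630 CPM (412 to 822, 15 samples), Bcl2l1 at 9.47 (0 to 15.97) and Mcl1 at 188 (143 to 235). Their Bmf was at 23.1 (3.93 to 45.05), above the T cells, while Bcl2l11 was at 52.1 (15.9 to 75.5) and Bbc3 at 0.62 (0 to 1.36), with 24 UMIs in all. Marginal zone B-like cells had Bcl2 at 751 (321 to 1081), Bcl2l1 at 34.7 (0 to 161) and Bcl2a1b at 23.5 (0 to 39.9). Plasma-like cells had Bcl2 at 500 (310 to 983), Bcl2l1 at 64.3 (36.7 to 146), Mcl1, which plasma cells are known to need, at 202 (151 to 269), and Bmf at 45.3 (0 to 86.6).

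Bcl2l1 in the thymic B-like cells, with a median of 187 CPM (49.6 to 251), was far above the 9.47 of B-like cells in the other samples. The thymic B-like cells held resting DP markers at 3897 CPM (1268 to 6296), with 6 of 6 above 0, against 50.4 (32.1 to 104) in B-like cells of the other samples, and the part of that RNA in the level was not tested. The cluster of the other samples that was named resting DP-like had Bcl2 at 479 (224 to 791), Bcl2l1 at 75.3 (0 to 200), Bcl2l11 at 158 (37.4 to 384) and Bmf at 32.9 (0 to 55.7). It held B markers at 3671 CPM (1141 to 7344), with 9 of 9 above 0, beside 135 in the resting DP-like cells of the thymic samples, and resting DP markers at 2130 (183 to 5077), below its B markers, which goes against its name; the part of B cell RNA in its levels was not tested.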

How the data were processed

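Cells of 8 thymic samples (WT 1 to 4 and Mini 1-A to 2-B) and of 16 other samples of the WT library were analyzed. The authors deposited UMI counts per cell and gene, which they made with split-pipe on each sublibrary, an index of the mm10 reference from Ensembl and a merge of 9 WT and 2 Mini sublibraries. The version of split-pipe was not given in the sources used here. Deposited counts were used as they are. The 4 thymic WT samples were taken by their names. The members, lists and comparisons were chosen with earlier results of these data known.

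Cells were kept if they held 500 to 25000 UMIs, of which mitochondrial genes took 15% or less. The 5% of cells of each sample with the highest doublet score were left out of the sums. They were still part of the clustering. The study itself called a far larger share of cells doublets in both Parse libraries. The alternative that removed 30% of cells, with the same clusters, is closer to its share for the WT library. Before clustering, expression was centered within each first-round well for the thymic samples, and depth was regressed out. Cells were clustered (2000 variable genes, 20 neighbors, Leiden resolution 1) with leidenalg 0.10.2 and named from marker lists. Counts were summed per sample and class, with ribosomal RNA genes left out of totals. Genes passing filterByExpr were fitted with edgeR 4.0.16 (glmQLFit, glmQLFTest, TMM, sample as a block, 8 classes, Benjamini-Hochberg). The SE is the fold change divided by the root of F. All classes of a sample come from the same lobe, which is where the pairing comes from. In simulated counts with 200 of 9708 genes changed, 98% of 2-fold and 80% of 1.5-fold changes between mature-like and resting DP-like cells were recovered, with 3.78% false among calls. The simulated samples had no effect of sample or mouse, and far fewer genes changed than were called in these data. The share of false calls in these data is therefore not known from the simulation. Named are all 9 members and at most 3 called genes of each list per comparison, those of largest change, plus the 3 genes most like Bcl2 and Bcl2l1 among genes of at least 20 CPM in a class. Counting error alone sets a floor of 3 UMIs. Alternatives changed the test (DESeq2 1.42.0), scaling, filter, doublets, depth, clustering, kit, block and samples. Promoter sequences are from RefSeq (GRCm38.p6); all 9 members matched. Some genes and 1 cluster of the other samples are not reported here.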

Additional observations from a re-analysis of the deposited data

Results flagged for a closer look

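Of 144 groups of 4 samples (9 members, 8 classes, 2 kits), 14 held a sample far from the other 3 of its kit, where chance gives about 1 in 20. The groups share samples, so they are not independent of each other. The share over all genes was not computed, so the count is not a result about these members. WT 1 was that sample in 10 of the 14, 5 of them for Bcl2. Its Bcl2 was at 3348 CPM in CD4-lineage Tox-high cells (others 2154 to 2274), 1857 in DN-like (784 to 873), 1531 in innate-like (705 to 826), 1900 in mature-like (1311 to 1410) and 1160 in strongly signalled cells (608 to 619). In WT 1, Bcl2l1 was at 116 in innate-like cells (others 161 to 170), Bcl2l11 at 817 in strongly signalled cells (564 to 601), Bmf at 127 in resting DP-like cells (93.0 to 96.4), Bax at 7.65 in resting DP-like cells (12.3 to 12.5) and Bak1 at 34.8 in innate-like cells (15.3 to 17.4). Left out, WT 1 changed Bcl2 from resting DP-like to mature-like cells from 3.90 to 3.85 and from DN-like to resting DP-like cells from -3.36 to -3.25. The resting DP-like values of WT 1 leave out its unnamed cluster that scored highest for the resting DP list.

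Mini 1-A had Bcl2l1 at 253 in DN-like cells (others 178 to 184) and Bcl2a1b at 1.02 (1 UMI, others at 0). Mini 2-A had Bcl2l11 at 442 in strongly signalled cells (others 627 to 640), and WT 4 had Bmf at 69.4 in the same class (49.1 to 51.6).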

How the results depend on the processing

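Of 63 member effects 39 were called, beside 45.4% of all gene tests. Of the 39, 25 kept direction and call in every alternative that tested them, and 14 lost the call in at least 1. Of these 14, 1 turned its direction and was called the other way. An alternative in which a member did not pass the filter, or a class did not form, was not counted against an effect. Bcl2 and Bcl2l1 kept direction and call between DN-like, cycling, Tox-high and resting DP-like cells and between resting DP-like and mature-like cells in all alternatives that tested them. Members called numbered 3 from DN-like to resting DP-like cells and 5 in cycling cells when cells were thinned to 1000 UMIs and those with fewer were dropped. There Bcl2a1b, Bbc3, Bax and Bak1 did not pass the filter, and Mcl1 and Bcl2l11 were tested and not called from DN-like to resting DP-like cells. In the Mini samples alone 3 were called for Tox-high against resting DP-like cells and 2 for mature-like against CD4-lineage Tox-high cells. With 30% of cells removed as doublets 5 were called for strongly signalled against Tox-high cells. That setting is closer than the main one to the share of doublets the study called in its WT library. Leaving out 1 sample gave 2 to 4 members for mature-like against CD4-lineage cells. Without the sample as a replicate block the counts were 5, 6, 4, 6, 7, 3 and 2, in the order of the report, the last being 2 in place of 4. For the alternatives the share of all genes called was not computed. Whether a change of these counts is particular to the members is therefore not known. The rise of the ratio of Bcl2 to Bcl2l1 was 5.62 in the WT and 5.92 in the Mini samples, where 4 samples cannot pass the threshold, and over the alternatives it ran from 4.56 (unnamed cluster of mature CD4 markers joined to mature-like) to 6.93 (30% doublet removal), with 8 of 8 samples higher in both. The cause of these changes was not tested unless named.

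Effects that changed sign, nearly all of members not called, are given by comparison. In cycling against resting DP-like cells they were Bax 0.0191 (cells of 2000 UMIs or more), 0.00663 (higher cluster resolution), -0.0879 to 0.0315 (leaving out 1 sample, reversed without Mini 1-A and Mini 2-A). In Tox-high against resting DP-like cells they were Bbc3 -0.12 (Mini alone). In mature-like against Tox-high cells they were Bax -0.0182 (higher cluster resolution), -0.051 (WT alone), -0.0938 (unnamed cluster joined), Bak1 -0.0421 (cells of 2000 UMIs or more), -0.0391 (higher cluster resolution), -0.00632 (CD4-lineage cells joined) and Bbc3 0.12 (Mini alone). In mature-like against resting DP-like cells they were Bbc3 0.0153 (DESeq2), 0.0512 (no TMM), 0.0627 (no doublet removal), 0.0637 (30% doublet removal), 0.0166 (cells of 2000 UMIs or more), 0.0872 (lower cluster resolution), 0.0393 (higher cluster resolution), 0.0046 (Mini alone), 0.12 (unnamed cluster joined), -0.0936 to 0.0919 (leaving out 1 sample, reversed without Mini 1-A and Mini 2-A and WT 1 and WT 4). In strongly signalled against Tox-high cells they were Bcl2 -0.82 (CD4-lineage cells joined), Bcl2l1 0.27 (CD4-lineage cells joined), Mcl1 -0.0162 (30% doublet removal), -0.0311 (Mini alone), -0.0667 to 0.0855 (leaving out 1 sample, reversed without Mini 1-A and WT 4), Bax -0.32 (WT alone), Bak1 -0.0719 (cells of 2000 UMIs or more), -0.29 (higher cluster resolution), Bmf 0.38 (CD4-lineage cells joined) and Bbc3 0.36 (Mini alone), -0.28 to 0.15 (leaving out 1 sample, reversed without WT 3). In mature-like against CD4-lineage Tox-high cells they were Bcl2l1 -0.18 (30% doublet removal), Bax 0.0203 (30% doublet removal), 0.063 (WT alone), -0.20 to 0.0126 (leaving out 1 sample, reversed without Mini 2-A), Bak1 0.0124 (Mini alone) and Bcl2l11 0.19 (higher cluster resolution), 0.20 (unnamed cluster joined).

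No Tox-high class formed at the lower cluster resolution, so those comparisons were not computed there. The fewest UMIs stood behind Bcl2a1b, Bbc3, Bax and Bak1.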

Other observations

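Dendritic-like cells of the thymic samples had the highest Bcl2a1b of the named thymic classes, with a median of 93.3 CPM (48.8 to 139, 8 samples), beside 41.6 in thymic B-like and 39.6 in innate-like cells. Their Bcl2 was at 246 CPM (190 to 309), Bcl2l1 at 200.5 (139 to 232) and Mcl1 at 159 (131 to 193). The same cells held macrophage and monocyte markers at 1115 CPM (541 to 1950, 7 of 7 above 0), against 18.1 or less in the medians of the other named thymic classes, neutrophil markers at 240 (77.3 to 848, 6 of 6 above 0) and resting DP markers at 2808 (2092 to 3457, 6 of 6 above 0), and the part of such RNA in these levels was not tested. Plasmacytoid dendritic-like cells, with 5 to 30 cells per sample, had 1 UMI of Bcl2a1b in all and Bcl2l11 at 306 CPM (145 to 473). Bcl2a1b shares most of its sequence with its paralogs, so these counts are uncertain.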
